A study of Homo sapiens with 15 samples.

Results

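The comparison of OTX015 with DMSO covered 6 of the series' 15 arrays, namely the 3 arrays titled OTX015 and the 3 titled DMSO. All were made from MV4-11 cells, a permanent line of human acute myeloid leukemia that carries a KMT2A-AFF1 fusion and an internal duplication of FLT3. OTX015 (birabresib) was given at 300 nM for 24 h, and the DMSO cells received the vehicle for the same time. The other 9 arrays, 3 per group, came from cells given DW71177 at 300 nM, RVX208 at 5 uM or DW71374 at 300 nM for 24 h. RNA was hybridised to a whole-transcript Affymetrix array, and the signals are the authors' deposited log2 values, taken here as already normalized between arrays. Each group was a single line treated in triplicate wells, so the p-values reflect the spread between such wells alone, which may be technical. The 6 arrays gave 14812 named genes, all of which entered the test, and every mean, SD and difference below rests on 3 arrays per group.

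BET proteins read acetylated lysines on histones through their bromodomains and bring the transcription elongation machinery to promoters and enhancers. OTX015 occupies these bromodomains and displaces the proteins from chromatin. Acute myeloid leukemia cells depend on BET proteins for several highly transcribed genes, and loss of MYC together with a rise of HEXIM1 is the best known readout. The genes and lists described here were chosen apart from those genes and from lists of growth and division. They cover surface receptors, signalling, lipid and redox metabolism, membrane traffic, nuclear transport, RNA processing, DNA repair and noncoding RNA. Some of them, such as the checkpoint kinase gene CHEK1, may also belong to growth and division programs, which was not tested.

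The myeloid markers LYZ and CD68 had high signal in both groups. LYZ averaged 10.08 ± 0.064 with OTX015 and 11.11 ± 0.037 with DMSO (mean ± SD, log2 signal), and CD68 averaged 10.44 ± 0.028 and 9.94 ± 0.13 in the same order. ANPEP and MPO, 2 of the 7 measured myeloid markers, lay under 5 in both groups. CSF1R averaged 5.47 with OTX015 and 7.02 with DMSO, SPI1 7.44 and 7.66, and CD86 6.52 and 5.19. Of 10 lymphoid markers 6 lay under 5 in both groups. NKG7 averaged 6.26 with OTX015 and 7.46 with DMSO, and CD4 6.74 and 6.76. Of 6 erythroid and megakaryocyte markers 3 lay under 5 in both groups, while EPOR averaged 6.00 and 5.87 and PF4 5.57 and 5.92. Of 10 epithelial, stromal and endothelial markers limma called 0, with 1 lower at an unadjusted p under 0.05, and 8 lay under 5 in both groups, while KRT18 was at 7.80 with OTX015 and 7.74 with DMSO. Array medians were 3.72 to 3.79, and replicate arrays correlated at 0.993 to 0.995 over genes.

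A gene was called when its limma p, adjusted over all 14812 genes, was under 0.05. By that rule 25.7% of genes differed between OTX015 and DMSO, 11.2% higher and 14.5% lower. These were 1656 higher and 2144 lower genes, and after quantile normalization 1962 and 1918. Most differences were small: 377 called genes rose and 640 fell at least 1.5-fold, while 59 (0.398%) rose and 138 (0.932%) fell at least 2-fold. At least 4-fold differences were rarer still, with 2 rises and 11 falls. The share called grew with signal. Among 5261 genes with a mean under 4, 2.07% rose and 2.02% fell, among 3405 genes with a mean of 6 to 8, 22.2% rose and 31.0% fell, and among 1059 genes with a mean of 8 or more, 26.5% rose and 33.8% fell. Of 952 measured genes on the lists below 47.9% had a mean of 6 or more, against 30.1% of all genes, so shares over all genes lie below those at the level of many list members. Genes with a group mean under 5 are called dim here. Background levels were not analysed here, and the folds of dim genes may be understated. Differences are log2 values, OTX015 minus DMSO, and those written with ± carry the standard error of the fit. In these whole-culture samples fewer cells of a type and less RNA per cell cannot be told apart.

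**Figure D1:**
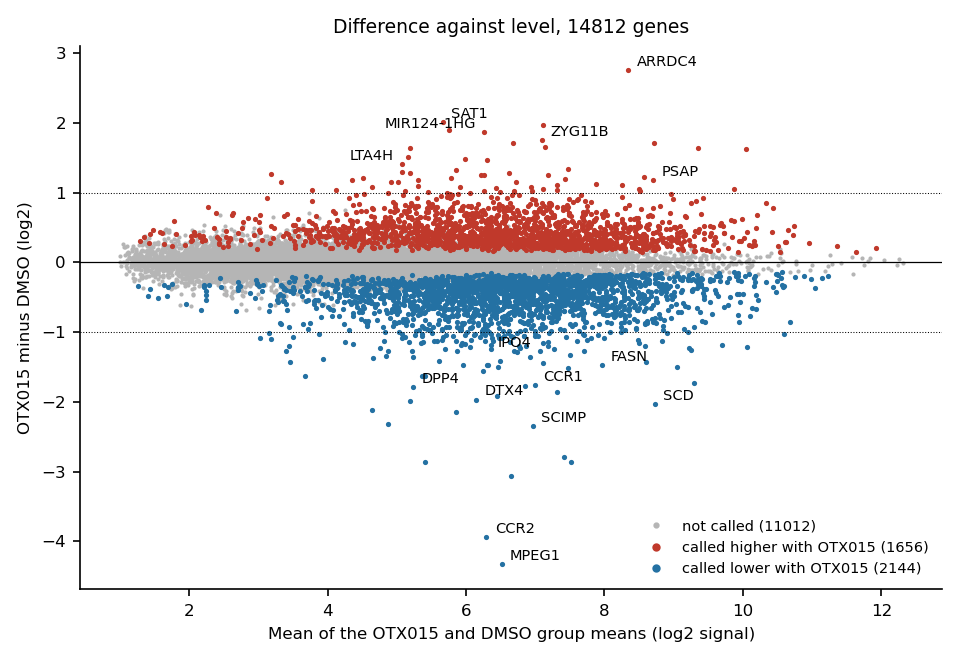
Each point is a gene, with the mean of the OTX015 and DMSO group means on the x axis (log2 signal) and the OTX015 minus DMSO difference on the y axis (log2). Red points (1656) were called higher and blue points (2144) lower with OTX015, grey points (11012) were not called, and the dotted lines mark 2-fold. The deepest falls reach -4.33 for MPEG1, while the highest rise is 2.76 for ARRDC4.

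The largest rise was that of ARRDC4, followed by SAT1, IER3 and ARRDC3, of which SAT1 and ARRDC3 were dim in DMSO. ARRDC4, an arrestin-domain protein related to TXNIP that limits glucose uptake, measured 9.71, 9.70 and 9.75 in the OTX015 arrays and 6.87, 7.07 and 6.97 in the DMSO arrays. The lowest OTX015 array lay more than 2 log2 units above the highest DMSO array. Its relative TXNIP measured 10.91, 10.80 and 10.86 with OTX015 and 9.23, 9.27 and 9.20 with DMSO, a rise of 1.62 ± 0.072 (limma adjusted p = 2.9e-09). ZYG11B, which selects substrates for a cullin ubiquitin ligase, measured 7.89, 8.03 and 7.99 with OTX015 and 6.01, 6.30 and 6.35 with DMSO. This was a difference of 1.75 ± 0.078 (limma adjusted p = 2.9e-09). The deubiquitinase gene USP25 rose by 1.23 ± 0.061 and the Toll-like receptor pathway ligase gene PELI1 by 1.18 ± 0.079 (dim in DMSO).

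The 30 largest rises and the 30 largest falls were chosen among genes whose arrays did not overlap between groups, so a gap between the arrays of such genes was set by the choice. EVI2A, a membrane protein gene that lies inside an intron of NF1, measured 6.90, 6.97 and 7.25 with OTX015 and 5.53, 5.61 and 5.56 with DMSO. The EVI2A fold was 2.77 (limma adjusted p = 1.2e-07). CD86, the costimulatory ligand of CD28, measured 6.5, 6.64 and 6.42 with OTX015 and 5.17, 5.19 and 5.22 with DMSO. This placed CD86 above the dim range in both groups. H6PD, which starts the pentose phosphate pathway inside the endoplasmic reticulum, rose by 1.29 ± 0.099 (dim in DMSO), the heparan sulfate polymerase gene EXT1 by 1.28 ± 0.093 and the apoptosis-linked kinase gene STK17B by 1.28 ± 0.099 (dim in DMSO). KIAA0513 rose by 1.63 ± 0.16 (dim in DMSO), and the cyclin-dependent kinase regulator SERTAD1 by 1.25 ± 0.091. NCF1B and NCF1C, pseudogenes nearly identical to the NADPH oxidase gene NCF1, rose by 1.71 ± 0.084 and 1.64 ± 0.073. Probes cannot separate such copies with certainty, and NCF1 itself was not analysed here.

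The largest falls beyond those of macrophage pore and chemokine receptor genes included adaptors and receptors of immune cells. SCIMP, an adaptor of Toll-like receptor and MHC class II signalling, measured 5.78, 5.76 and 5.84 in the OTX015 arrays and 8.16, 8.13 and 8.13 in the DMSO arrays. All 3 OTX015 values lay over 2 log2 units below all 3 DMSO values, a 5.07-fold fall (-2.34 ± 0.056, limma adjusted p = 6.2e-12). FCMR, the receptor for the Fc part of immunoglobulin M, fell by 2.15 ± 0.10, and CD209, a lectin of dendritic cells and macrophages, by 2.11 ± 0.14, both to the dim range with OTX015. CCR1, a receptor for inflammatory chemokines, measured 6.07, 6.07 and 6.19 with OTX015 and 7.86, 7.92 and 7.85 with DMSO. The fall of CCR1 was 3.4-fold (limma adjusted p = 1.8e-10). DPP4, a surface peptidase also known as CD26, measured 4.36, 4.35 and 4.31 with OTX015, in the dim range, and 6.16, 6.03 and 6.21 with DMSO. MAP4K1, a kinase that restrains lymphocyte receptor signalling, fell by 1.63 ± 0.092 (dim with OTX015), and NCR3LG1, the ligand of the natural killer receptor NKp30, by 1.47 ± 0.12. PLAC8, a cysteine-rich protein gene, fell by 1.73 ± 0.057, and the secreted chitinase-like protein gene CHI3L1 by 1.49 ± 0.063.

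SCD, FASN and ACSL5, which make or activate fatty acids, were also among the 30 largest falls. SCD, which makes monounsaturated fatty acids, measured 7.67, 7.73 and 7.73 with OTX015 and 9.70, 9.73 and 9.79 with DMSO. The SCD gap of 2.03 ± 0.06 was many times the SD of 0.034 and 0.047 (limma adjusted p = 5e-11), and a dimmer SCD feature also fell by 1.54. FASN, the fatty acid synthase, measured 7.26, 7.19 and 7.25 with OTX015 and 8.64, 8.71 and 8.74 with DMSO. That was a 2.76-fold fall (limma adjusted p = 1.2e-09). ACSL5, which activates long-chain fatty acids to acyl-CoA, fell by 1.98 ± 0.12 and was dim with OTX015.

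**Figure D2:**
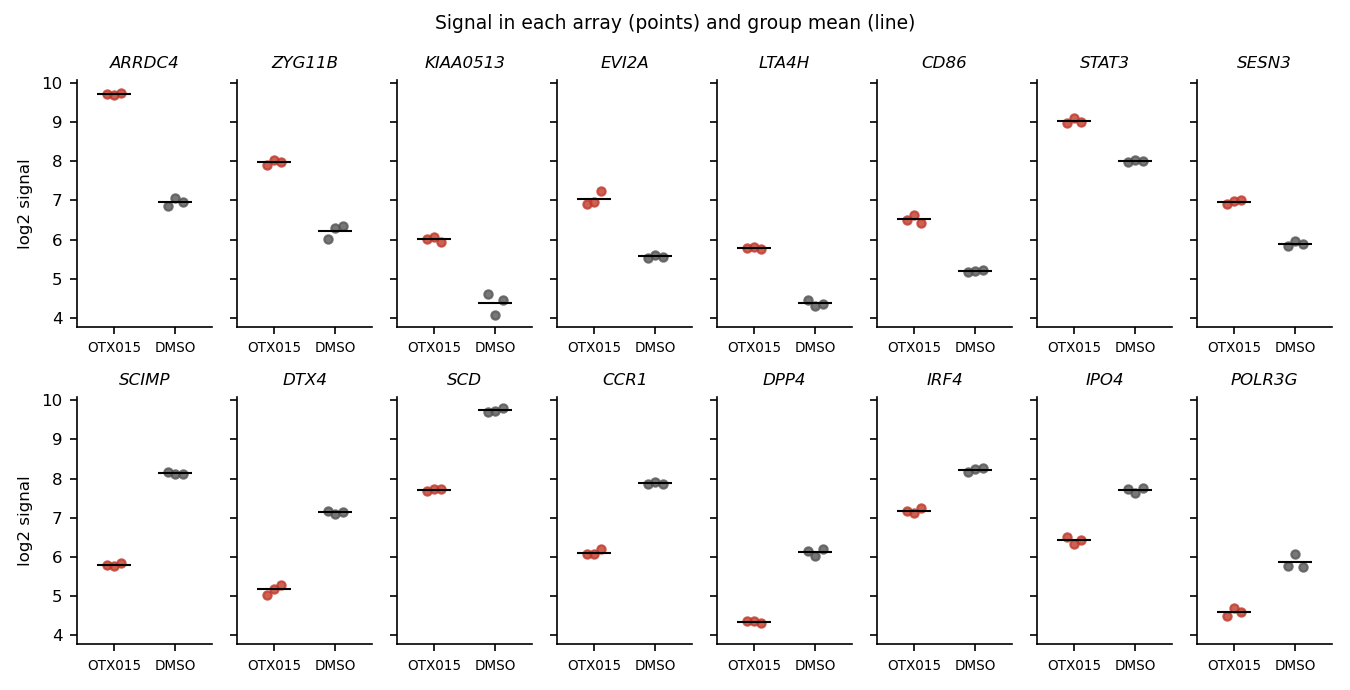
Each panel shows 1 gene, with the log2 signal of the 3 OTX015 arrays (red, left) and the 3 DMSO arrays (grey, right) as points and the group mean as a line. The OTX015 points lie above the DMSO points for the 8 genes of the upper row and below them for the 8 genes of the lower row, a gap that the choice of genes set for those among the 30 largest rises or falls.

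Adhesion receptors moved in both directions, while 5 Siglec genes fell. Of 11 measured integrin and adhesion receptor genes 3 rose and 5 fell (list median -0.013, against -0.0038 for all genes). These were 27.3% and 45.5%, against 11.2% and 14.5% of all genes and 22.2% and 31.0% of genes with a mean of 6 to 8. ICAM3, a leukocyte adhesion ligand, fell by 0.73 ± 0.089, EMB by 0.62 ± 0.075 and the hyaluronan receptor CD44 by 0.43 ± 0.074, while the phagocytosis-inhibiting ligand CD47 rose by 0.65 ± 0.099. A list of lectin-type receptors had 11 measured members, mostly Siglecs, the sialic acid-binding receptors of leukocytes, and did not include CD209. Of these 11 limma called 0 higher, as did an unadjusted p under 0.05, and 5 lower, all Siglecs (45.5%, against 14.5% of all genes, median -0.23). However, 6 of the 11 were dim in both groups, where calls in either direction were rarer. SIGLEC12 measured 6.64, 6.91 and 6.84 with OTX015 and 7.66, 7.72 and 7.59 with DMSO. SIGLEC6 fell by 1.63 ± 0.23 (dim with OTX015), SIGLEC5 by 0.72 ± 0.11 and SIGLEC7 by 0.49 ± 0.13. SIGLEC10 fell by 0.23 ± 0.074, a call lost when any array other than OTX015 replicate 2 was left out (limma adjusted p = 0.062 to 0.12).

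Among STATs, Janus kinases, their targets and suppressors several genes rose, and none was called lower. Cytokine receptor genes, on a separate list, moved in both directions. IL7R fell by 1.63 ± 0.12 (dim in both groups), and IL17RA rose by 0.53 ± 0.054. Of 21 measured STATs, Janus kinases, their targets and suppressors 8 rose (38.1%, against 11.2% of all genes and 22.2% of genes with a mean of 6 to 8) and 0 fell, also at an unadjusted p under 0.05, with a list median of 0.078. STAT3, a transcription factor activated by cytokine receptors, measured 8.98, 9.10 and 9.0 with OTX015 and 7.98, 8.04 and 8.01 with DMSO. JAK1, a kinase bound to those receptors, measured 9.45, 9.46 and 9.42 with OTX015 and 8.52, 8.58 and 8.50 with DMSO. Both genes differed by about 1 log2 unit, 1.02 ± 0.058 and 0.91 ± 0.052, with limma adjusted p of 2.9e-08 and 3.2e-08. The feedback suppressors SOCS1 (0.83 ± 0.07, dim in DMSO) and CISH (0.29 ± 0.065) rose too, as did the survival kinase PIM1 (0.63 ± 0.052). STAT5A and STAT5B, the transducers downstream of FLT3 with the duplication, differed by 0.067 ± 0.15 and 0.078 ± 0.058 and did not pass the test.

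The ERK pathway's own feedback genes split. Of 15 measured 5 rose and 4 fell (median -0.13). These were 33.3% and 26.7%, against 11.2% and 14.5% of all genes and 22.2% and 31.0% of genes with a mean of 6 to 8. DUSP6, the cytoplasmic phosphatase that inactivates ERK, measured 8.09, 8.13 and 8.21 with OTX015 and 7.14, 7.16 and 7.24 with DMSO. SPRY2 and SPRY4, inhibitors upstream of ERK, rose by 0.75 ± 0.10 and 0.61 ± 0.10, the first dim in DMSO and the other dim in both groups. In contrast FOSL1, an AP-1 subunit induced by ERK, measured 6.21, 6.27 and 6.20 with OTX015 and 7.25, 7.30 and 7.16 with DMSO. ETV4 fell by 0.91 ± 0.091 (dim with OTX015), so that DUSP6 and FOSL1, both known ERK targets, lay on opposite sides of no change.

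Nutrient sensors and NF-kB genes were mostly higher where they were called. Of 24 measured genes of nutrient and insulin signalling 7 rose (29.2%) and 0 fell, also at an unadjusted p under 0.05 (median 0.17). All genes had 11.2% higher and 14.5% lower, and genes with a mean of 6 to 8 had 22.2% and 31.0%. The sestrins, which restrain the growth kinase mTORC1 when amino acids are short, rose together: SESN3 measured 6.91, 6.98 and 7.0 with OTX015 and 5.83, 5.96 and 5.89 with DMSO. SESN2 rose by 0.50 ± 0.073 and SESN1 by 0.38 ± 0.082. The FOXO3 rise of 0.39 ± 0.08 was absent from its second feature, at 0.122, and TSC1, at 0.26 ± 0.066, lost its call without DMSO replicate 2 (0.21, limma adjusted p = 0.052). Of 15 NF-kB genes 4 rose and 1 fell (26.7% and 6.67%, median 0.11), with the share of rises near the 22.2% above. The subunits REL and NFKB1 rose by 0.44 ± 0.054 and 0.41 ± 0.063 and the nuclear inhibitor-like protein BCL3 by 0.80 ± 0.12. The signalling adaptor TRAF3 fell by 0.44 ± 0.10.

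In the Notch pathway receptor genes and a receptor protease rose, whereas a ubiquitin ligase, a feedback gene and a Fringe modifier fell. Of 29 measured members 4 rose and 3 fell (median -0.039), shares near those of all genes. DTX4, a Deltex ubiquitin ligase, measured 5.03, 5.19 and 5.28 with OTX015 and 7.18, 7.09 and 7.14 with DMSO. It was the strongest member, 3.91-fold lower (limma adjusted p = 2.8e-09). The feedback regulator NRARP fell by 1.07 ± 0.13 (dim with OTX015) and the Fringe glycosyltransferase MFNG by 0.73 ± 0.053. The receptor gene NOTCH1 rose by 0.53 ± 0.061 and the receptor-cleaving protease ADAM10 by 0.42 ± 0.064.

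**Figure D3:**
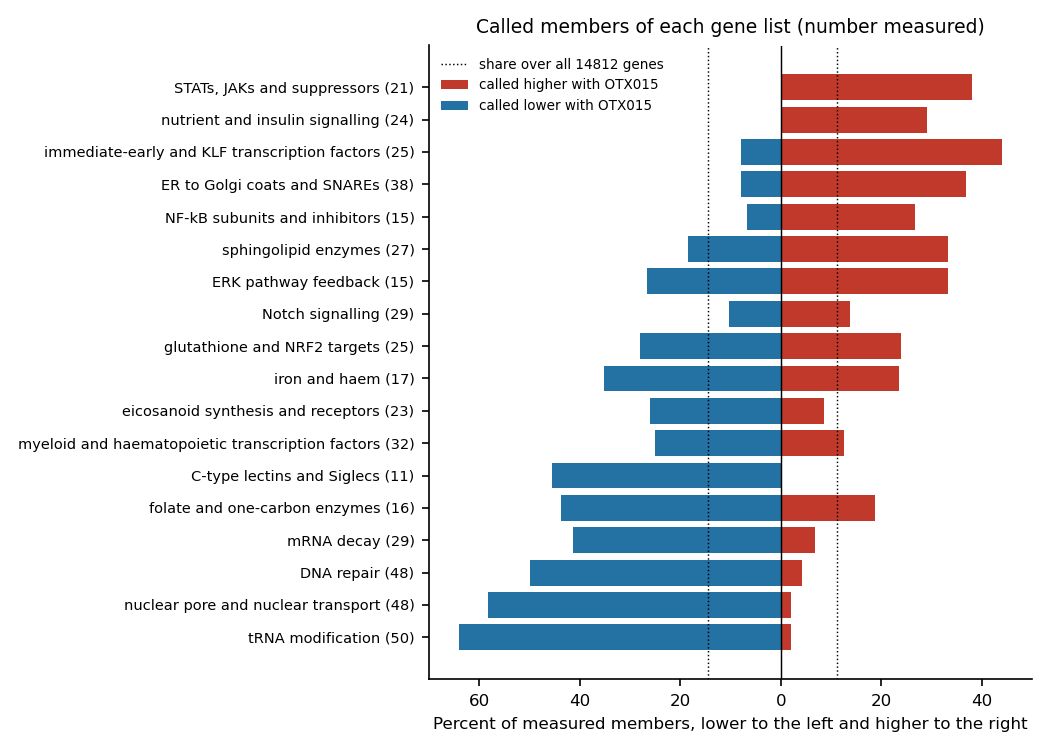
Bars give the percent of each list's measured members (number in brackets) called higher (red, to the right) or lower (blue, to the left) with OTX015, and dotted lines mark the shares over all 14812 genes, 11.2% and 14.5%. The 4 lists at the bottom, of mRNA decay, DNA repair, nuclear transport and tRNA modification, have 41.4% to 64.0% of members lower.

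Falls among transcription factors of blood cells included interferon regulatory factors. Of 32 measured 4 rose and 8 fell (25.0%, against 14.5% of all genes and 31.0% of genes with a mean of 6 to 8; median -0.026). IRF4, an interferon regulatory factor of lymphoid and dendritic cells, measured 7.18, 7.13 and 7.24 with OTX015 and 8.16, 8.25 and 8.27 with DMSO. IRF5, which drives inflammatory cytokine genes in macrophages, fell by 0.92 ± 0.072 and RUNX3 by 1.04 ± 0.091. TFEC, a macrophage-restricted member of the MITF family, fell by 1.10 ± 0.15 (dim in both groups). ELF4, an ETS factor, rose by 0.39 ± 0.056. RUNX1, IKZF1 and GFI1 differed by 0.086, -0.063 and 0.11 and did not pass the test. SPI1, the master regulator of the myeloid lineage, fell by only 0.22 ± 0.059, a call lost without DMSO replicate 3 (-0.19, limma adjusted p = 0.058) or OTX015 replicate 2 (-0.19, limma adjusted p = 0.053).

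Immediate-early and KLF factors leaned the other way. Of 25 measured 11 rose (44.0%) and 2 fell (8.0%), and the list median was 0.24. All genes had shares of 11.2% and 14.5%, and genes with a mean of 6 to 8 had 22.2% and 31.0%. KLF10, a TGF-beta-induced zinc finger factor, measured 8.71, 8.68 and 8.64 with OTX015 and 7.87, 7.94 and 7.90 with DMSO. The AP-1 subunits JUND, FOSL2 and JUN rose by 0.30 ± 0.052, 0.34 ± 0.061 and 0.71 ± 0.13, of which JUN was dim in DMSO. FOS rose by 0.87 ± 0.12 on its brighter feature, while its other feature differed by 0.0866 and was not called. KLF11, a close relative of KLF10, fell by 0.50 ± 0.075.

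Redox and one-carbon genes moved in both directions. Of 25 glutathione and NRF2 target genes 6 rose and 7 fell (median -0.045). PGD, the pentose phosphate enzyme that yields NADPH, measured 9.84, 9.92 and 9.89 with OTX015 and 8.94, 8.99 and 8.95 with DMSO. Glutathione reductase (GSR) rose by 0.76 ± 0.064 and peroxiredoxin 1 (PRDX1) by 0.59 ± 0.053. On the other side PRDX2 measured 7.82, 7.82 and 7.93 with OTX015 and 8.69, 8.70 and 8.74 with DMSO, and the microsomal transferase MGST1 fell by 1.08 ± 0.093 (dim in both groups). Of 16 folate and one-carbon genes 3 rose and 7 fell (18.75% and 43.75%, against 11.2% and 14.5% of all genes, median -0.17). MTHFD1L, which makes formate in mitochondria, fell by 1.19 ± 0.07, far more than the serine hydroxymethyltransferase SHMT2 at -0.22 ± 0.054.

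Iron and haem genes also moved in both directions. Of 17 measured 4 rose and 6 fell (23.5% and 35.3%, median -0.076). Those shares lay near the 22.2% and 31.0% of genes with a mean of 6 to 8. ALAD, an early enzyme of haem synthesis, rose by 0.55 ± 0.054 and biliverdin reductase B (BLVRB) by 0.55 ± 0.078. UROD, a later enzyme of the same pathway, fell by 0.67 ± 0.081, the haem exporter FLVCR1 by 0.66 ± 0.085 and the transferrin receptor TFR2 by 0.70 ± 0.099.

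Lipid mediators and sphingolipids showed strong single genes. Of 23 eicosanoid genes 2 rose and 6 fell (8.7% and 26.1%, against 11.2% and 14.5% of all genes, median 0.0022). LTA4H, which makes leukotriene B4, measured 5.77, 5.82 and 5.76 with OTX015 and 4.45, 4.31 and 4.35 with DMSO. DMSO levels of LTA4H were in the dim range, so its fold of 2.66 may be understated (limma adjusted p = 1.7e-06). The lipoxygenase ALOX12 fell by 0.96 ± 0.084 and the cysteinyl leukotriene receptor CYSLTR1 by 0.74 ± 0.086, while cyclooxygenase 1 (PTGS1) rose by 0.60 ± 0.09. ALOX5 and its activating protein gene ALOX5AP, which act before LTA4H, differed by -0.17 ± 0.11 and 0.035 ± 0.053 and did not pass the test.

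Of 27 sphingolipid genes 9 rose and 5 fell (33.3% and 18.5%, against 11.2% and 14.5% of all genes, median 0.069). Among genes with a mean of 6 to 8 the shares were 22.2% and 31.0%. Ceramidases rose: the acid ceramidase ASAH1 by 0.50 ± 0.051, the alkaline ceramidase ACER2 by 0.78 ± 0.099 and ACER3 by 0.46 ± 0.088. GM2A, the activator protein for ganglioside breakdown in lysosomes, rose by 0.53 ± 0.068. UGCG, which adds glucose to ceramide, measured 9.59, 9.55 and 9.52 with OTX015 and 10.29, 10.35 and 10.30 with DMSO. Ceramide kinase (CERK) fell by 0.41 ± 0.054 and the sphingosine-1-phosphate receptor S1PR2 by 0.77 ± 0.11. All 3 called ceramidases thus rose, whereas the enzymes that glycosylate or phosphorylate ceramide fell.

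Genes of vesicle coats and membrane fusion, taken as 1 list, had more rises than falls. It held 38 measured genes of ER to Golgi coats and of SNAREs, the proteins that pull vesicle and target membranes together. Of these 14 rose (36.8%) and 3 fell (7.9%, median 0.076), and coats and SNAREs were not counted apart. Shares were 11.2% and 14.5% over all genes and 22.2% and 31.0% among genes with a mean of 6 to 8. STX11, a syntaxin of leukocyte granule release, rose by 0.49 ± 0.081, VAMP7 by 0.38 ± 0.06 (0.37 on its other feature) and the autophagosome syntaxin STX17 by 0.80 ± 0.10 (dim in DMSO). VAMP8, an endosomal SNARE used in granule secretion, measured 8.63, 8.67 and 8.72 with OTX015 and 9.61, 9.65 and 9.62 with DMSO. It fell 1.94-fold (limma adjusted p = 1.4e-08), against the direction of most called members.

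Protease control genes had 5 rises and 3 falls among 28 measured (17.9% and 10.7%, near the 11.2% and 14.5% of all genes; median 0.043). Cystatins block cathepsins, and 2 of them moved apart. CSTA rose by 0.76 ± 0.078, whereas CST7 measured 5.41, 5.52 and 5.16 with OTX015 and 6.62, 6.46 and 6.47 with DMSO, a 2.23-fold fall. The metalloproteinase inhibitors TIMP2 and TIMP1 rose by 0.35 ± 0.075 and 0.26 ± 0.059, and CST3 differed by -0.018 ± 0.053 without passing the test.

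Most measured genes of traffic through the nuclear pore fell. Of 48 measured pore and transport genes 28 fell (58.3%, against 14.5% of all genes and 31.0% of genes with a mean of 6 to 8), and the list median was -0.29. IPO4, an importin that carries histones and ribosomal proteins, measured 6.51, 6.34 and 6.43 with OTX015 and 7.72, 7.63 and 7.75 with DMSO. The fall of IPO4 was 2.42-fold (limma adjusted p = 5.7e-09). Falls reached scaffold proteins of the pore (NUP107 by 0.84 ± 0.063, NUP205 by 0.86 ± 0.069), its membrane anchor NDC1 (-0.84 ± 0.067), the import receptor TNPO2 (-0.89 ± 0.061) and the mRNA export cofactor NXT1 (-0.99 ± 0.087). NUP98, NUP214 and RANBP2 differed by -0.058, -0.065 and -0.053 and did not pass the test.

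Enzymes that modify transfer RNA fell at a like share. Of 50 measured 32 fell (64.0%), with a median of -0.36, against falls in 14.5% of all genes. Among genes with a mean of 6 to 8 the share lower was 31.0%. The pseudouridine synthase PUS7 measured 6.56, 6.90 and 6.76 with OTX015 and 7.74, 7.73 and 7.72 with DMSO. QTRT1 and QTRT2, the subunits of the enzyme that inserts queuosine, fell by 0.98 ± 0.099 and 0.94 ± 0.075. WDR4, the partner of the m7G methyltransferase METTL1, fell by 0.97 ± 0.099 (dim with OTX015), and METTL1 itself by 0.49 ± 0.097. The elongator subunits ELP2 and ELP4 differed by 0.0088 and 0.093 and did not pass the test.

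Most falls among RNA decay genes concerned the RNA exosome, the 3′ to 5′ RNA-degrading complex. Of 29 measured decay genes 12 fell (41.4%, median -0.16), and 8 of these were among the 10 measured exosome subunits. Falls made up 14.5% of all genes and 31.0% of genes with a mean of 6 to 8. EXOSC5 measured 8.64, 8.55 and 8.68 with OTX015 and 9.85, 9.92 and 9.85 with DMSO. EXOSC8, EXOSC9, EXOSC2 and EXOSC7 fell by 0.76, 0.63, 0.61 and 0.53. XRN1, the 5′ to 3′ exonuclease of the cytoplasm, rose by 0.41 ± 0.08. EXOSC1 and EXOSC6 differed by -0.0059 and -0.15 and did not pass the test.

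DNA repair genes fell in 24 of 48 measured cases (50%), with a median of -0.20. This compares with 14.5% of all genes and 31.0% of genes with a mean of 6 to 8. UNG, which removes uracil from DNA, measured 7.17, 7.21 and 7.21 with OTX015 and 8.30, 8.27 and 8.34 with DMSO. The exonuclease EXO1 fell by 1.02 ± 0.065, PALB2, which links BRCA1 to BRCA2, by 0.86 ± 0.083, the checkpoint kinase CHEK1 by 0.76 ± 0.071 and the base-excision nuclease APEX1 by 0.67 ± 0.051. OGG1, MUTYH and PMS2, of base excision and mismatch repair, differed by 0.0051, -0.083 and -0.0025 and did not pass the test.

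Rises within the pore, transfer RNA, decay and repair lists were few, and all 6 are named, chosen after their values were seen. Besides XRN1 the decapping factor DCP1A rose by 0.24 ± 0.061 and the mismatch repair gene MSH3 by 0.29 ± 0.073. The other 3 calls were frail: the importin KPNA4 (0.24 ± 0.079) lost its call without DMSO replicate 1 or 2 or OTX015 replicate 2 or 3 (limma adjusted p = 0.069 to 0.14). TRMT1L (0.23 ± 0.078), related to a tRNA methyltransferase, lost it without DMSO replicate 1 or 3 or OTX015 replicate 2 or 3 (limma adjusted p = 0.097 to 0.19). The helicase RECQL (0.23 ± 0.078) kept it only without OTX015 replicate 1, and its limma adjusted p was 0.056 to 0.17 without any other single array.

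Another 20 lists with 338 measured members, from cytokine receptors to ubiquitin ligase adaptors, held 69 rises (20.4%) and 53 falls (15.7%). Shares over all genes were 11.2% and 14.5%, and those of genes with a mean of 6 to 8 were 22.2% and 31.0%. Medians of the 20 lists ran from -0.11 to 0.16. Genes of sugar transporters, the vacuolar ATPase and RAB GTPases were not analysed here. Within the 20 lists CPT1A, the entry enzyme of mitochondrial fatty acid oxidation, fell by 0.62 ± 0.065 and the oxoglutarate dehydrogenase gene OGDH rose by 0.66 ± 0.072. CD82, a tetraspanin, rose by 0.70 ± 0.14 and the iron-sensing F-box protein gene FBXL5 by 0.71 ± 0.07. Metallothionein genes moved in both directions. MT2A rose by 0.81 ± 0.075, MT1X by 0.47 ± 0.062 and MT1E by 0.64 ± 0.11. MT1M fell by 1.17 ± 0.16 (dim in both groups) and MT1F by 0.17 ± 0.051. Counts of called members in several of the shorter lists among these 20 moved by over 1.5 times when single arrays were left out, so none of those counts is given on its own.

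Calls covered 9.37% of 1387 long noncoding RNAs, 5.87% of 1022 microRNA genes and 8.58% of 443 transcribed pseudogenes, against 29.9% of 11911 protein-coding genes. Most noncoding genes were weak: 1192 of the long noncoding RNAs and 858 of the microRNA genes were dim in both groups, so the shares are not comparable at equal signal. The array reads the locus of a microRNA, host or hairpin transcript included, and not the mature microRNA alone.

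The mature sequences of 4 called microRNA genes known from blood cells are shown because the seed, bases 2 to 8, largely sets which messages they bind. They are RefSeq sequences (GRCh38.p14), written 5′ to 3′ with the seed in capitals. MIR155 and MIR21 were chosen after their values were seen, and 53 of 60 called microRNA loci had such a sequence.
miR-142-3p: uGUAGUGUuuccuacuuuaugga
miR-142-5p: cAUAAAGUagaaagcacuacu
miR-155-5p: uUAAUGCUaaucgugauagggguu
miR-223-3p: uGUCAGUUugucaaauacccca
miR-21-5p: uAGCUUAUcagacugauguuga

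MIR142, a microRNA gene active across blood lineages, measured 6.87, 6.63 and 6.88 with OTX015 and 6.07, 5.85 and 6.09 with DMSO. TSPOAP1-AS1, the annotated antisense gene that spans its locus, moved the other way, by -0.68 ± 0.09. MIR155, a microRNA of activated leukocytes, rose by 0.48 ± 0.069, whereas MIR223, typical of granulocytes and monocytes, measured 6.25, 6.25 and 6.28 with OTX015 and 7.04, 6.76 and 6.82 with DMSO. MIR21 rose by 1.04 ± 0.22 while dim in both groups, and VMP1, the gene it lies in, by 0.36 ± 0.062. MIR613 (dim in DMSO) and APOLD1, the gene it lies in, rose by 0.98 ± 0.23 and 1.05 ± 0.11.

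Among long noncoding RNAs MIR124-1HG, the host of a neural microRNA, measured 7.40, 6.88 and 7.32 with OTX015 and 5.41, 5.35 and 5.21 with DMSO. It was the strongest rise of its class (limma adjusted p = 1.2e-05). LINC00996 measured 5.62, 5.31 and 5.55 with OTX015 and 7.39, 7.43 and 7.42 with DMSO, the deepest fall of the class at 3.79-fold. Among hosts of small nucleolar RNAs SNHG16 fell by 1.16 ± 0.07 and SNHG17 by 0.73 ± 0.075. GAS5 differed by -0.30 ± 0.14 without passing the test. MALAT1, an abundant nuclear RNA, measured 10.79, 10.84 and 10.84 with OTX015 and 10.15, 9.96 and 10.01 with DMSO, and its other 2 features rose as well.

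Products and subunits of RNA polymerase III, with small Cajal body RNAs beside them, were looked at after their values had been seen, and they are given as a description. Of 8 SNAR genes, near-identical small RNAs made by this polymerase whose copies the probes may not separate, 4 fell by 1.03 to 1.22 and 0 rose, also at an unadjusted p under 0.05. SNAR-B1 measured 8.79, 8.60 and 8.43 with OTX015 and 9.86, 9.77 and 9.86 with DMSO. POLR3G and POLR3GL are alternative subunits of the polymerase, and the form with POLR3G is typical of stem and tumor cells. POLR3G measured 4.48, 4.70 and 4.6 with OTX015 and 5.75, 6.07 and 5.75 with DMSO, whereas POLR3GL measured 6.34, 6.53 and 6.54 with OTX015 and 5.59, 5.79 and 5.63 with DMSO. Of 5 measured subunits 1 rose and 3 fell, with POLR3C at -0.26 ± 0.061 and POLR3E at -0.39 ± 0.064. POLR3G and POLR3GL thus changed in opposite directions, by -1.27 ± 0.10 (dim with OTX015) and 0.80 ± 0.069. Of 4 vault RNAs, also made by polymerase III, 1 fell, VTRNA1-3 by 0.67 ± 0.19 (dim in both groups). The VTRNA1-3 call was lost without DMSO replicate 3 (-0.49, limma adjusted p = 0.084) or OTX015 replicate 1 (-0.51, limma adjusted p = 0.082). Small Cajal body RNAs, which guide the modification of spliceosomal RNAs, are not counted here as products of polymerase III. Among 21 of them 7 rose by 0.43 to 0.68 and 1 fell. Over all genes 11.2% rose and 14.5% fell.

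**Figure D4:**
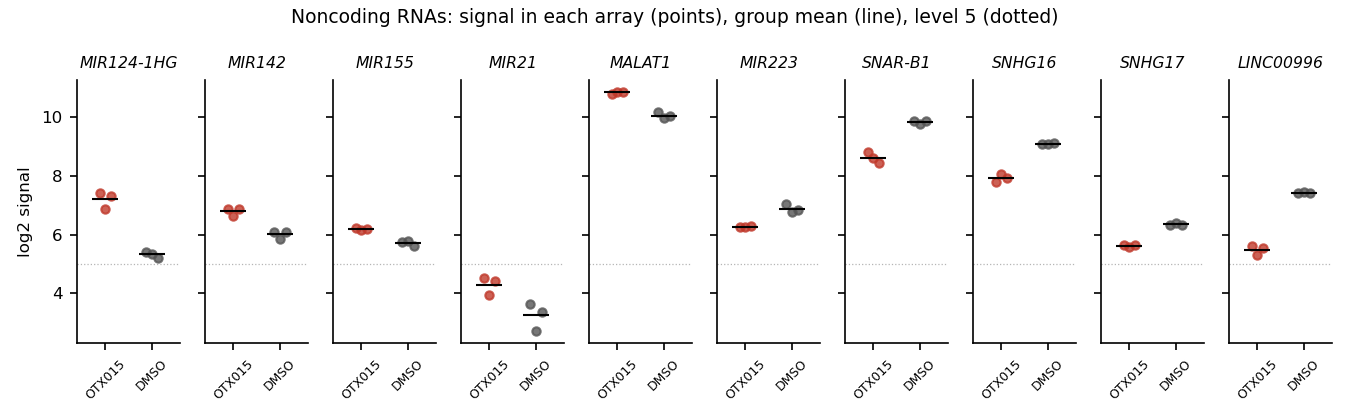
Each panel shows 1 noncoding RNA, with the log2 signal of the 3 OTX015 arrays (red, left) and the 3 DMSO arrays (grey, right) as points, the group mean as a line and a dotted line at a level of 5. MIR21 lies under 5 in all 6 arrays, and the largest gaps are those of MIR124-1HG (1.87) and LINC00996 (-1.92).

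Promoter letters were compared to describe the genes called at least 2-fold. RefSeq promoters (GRCh38.p14) were available for 10736 genes, including 40 of the rises and 103 of the falls, and the 250 bases before and 50 bases after the start were read on both strands. The E-box CACGTG, bound by MYC-MAX and by the glucose-sensing Mondo factors, stood in 10.0% of the rises, 15.5% of the falls and 9.03% of all promoters. The letters TGANTCA, a loose form of the AP-1 motif that allows any middle base, stood in 7.5%, 10.7% and 5.88%. The CCAAT box stood in 37.5%, 31.1% and 36.0%. The SP/KLF box GGGCGG stood in 72.5%, 58.3% and 60.5%. The CRE letters TGACGTCA stood in none of the rises, 3.88% of the falls and 2.63% of all promoters, and the forkhead letters GTAAACA in 2.50%, 1.94% and 2.62%. A pair of exact CACGTG E-boxes 5 bases apart was in none of either group and in 0.019% of all promoters. So rare a pattern could hardly appear in 40 or 103 promoters, and pairs of looser E-boxes were not searched. A match is no proof of a site, and no test was made.

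The promoters of ARRDC4, which rose, and of IPO4, CCR2 and CSF1R, which fell, are shown because all 4 hold the letters TGANTCA. ARRDC4 and IPO4 also hold the E-box letters, although they moved in opposite directions. The IPO4 match, TGAATCA, has A in the middle, where the stricter AP-1 motif has C or G, as in the other promoters shown. E-box and TGANTCA letters are in capitals, and the sequence runs 5′ to 3′ on the gene's strand, ending at the base before the annotated start.
ARRDC4 (chr15:97960453-97960702, plus strand): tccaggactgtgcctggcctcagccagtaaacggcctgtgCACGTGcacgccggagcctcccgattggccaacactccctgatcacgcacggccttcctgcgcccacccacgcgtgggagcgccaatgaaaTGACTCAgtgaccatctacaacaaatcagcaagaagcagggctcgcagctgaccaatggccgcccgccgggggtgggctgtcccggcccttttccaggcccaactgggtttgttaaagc
IPO4 (chr14:24188817-24189066, minus strand): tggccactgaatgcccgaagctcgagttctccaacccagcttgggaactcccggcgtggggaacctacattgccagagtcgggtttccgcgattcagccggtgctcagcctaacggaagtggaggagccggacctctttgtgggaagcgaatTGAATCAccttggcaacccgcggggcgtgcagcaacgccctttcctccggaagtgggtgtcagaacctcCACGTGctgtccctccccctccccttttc
CCR2 (chr3:46353861-46354110, plus strand): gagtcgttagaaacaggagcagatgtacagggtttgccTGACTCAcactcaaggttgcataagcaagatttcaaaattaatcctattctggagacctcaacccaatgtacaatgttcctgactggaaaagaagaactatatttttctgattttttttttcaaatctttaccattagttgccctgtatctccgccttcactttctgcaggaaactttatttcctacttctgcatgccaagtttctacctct
CSF1R (chr5:150113366-150113615, minus strand): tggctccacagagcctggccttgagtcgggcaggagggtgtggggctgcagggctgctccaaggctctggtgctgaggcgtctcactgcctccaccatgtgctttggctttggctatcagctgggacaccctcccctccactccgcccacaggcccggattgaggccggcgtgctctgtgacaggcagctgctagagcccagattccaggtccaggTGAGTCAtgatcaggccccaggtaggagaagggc
ARRDC4 rose by 2.76 ± 0.069 and IPO4 fell by 1.27 ± 0.06, whereas CCR2 and CSF1R, receptors of monocytes for a chemokine and for macrophage colony-stimulating factor, fell by 3.94 ± 0.097 and 1.55 ± 0.076.

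OTX015 was also set directly against the other compounds, with all 15 arrays, DMSO included, giving the shared estimate of spread. Against DW71177 at the same dose 1.26% of genes differed, 27 higher and 159 lower with OTX015 (37 and 91 after quantile normalization). Without DW71177 replicate 1, 2 or 3 the count of 186 became 106, 71 or 74, and without OTX015 replicate 1 or 3 it became 80 or 104. ARRDC4 averaged 9.72 with OTX015 and 8.68 with DW71177, a difference of 1.04 (95% interval 0.89 to 1.19, limma adjusted p = 1.1e-05). It was the single gene called when these 6 arrays were fitted alone. SAT1, a polyamine acetyltransferase, was higher by 0.93 and the stress-response gene IER3 by 0.64. SCIMP was lower by 0.68 (95% interval -0.80 to -0.56), UNG by 0.54, MAP4K1 by 0.55, CCR1 by 0.39 and VAMP8 by 0.32, and these 7 genes kept their call in 9 or 10 of 11 alternatives. TNF, GPR84 and CCL3 were higher and MT1M, KRTAP21-1, MAP2K6, AMER1 and ZNF443 lower at adjusted p of 0.025 to 0.05, and each kept its call in 2 to 4 of its 10 or 11 alternatives.

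Of 23 genes described above that were also set against DW71177, a choice made after values were seen, 7 were called and 16 did not pass the test. Besides those named, the called genes were PLAC8 (-0.38, kept in 10 of 11 alternatives), USP25 (0.29, kept in 4) and FOS (0.54, kept in 3). STAT3 differed by 0.073 (95% interval -0.051 to 0.20), DUSP6 by 0.10 (-0.031 to 0.23), SESN3 by 0.12 (-0.052 to 0.29), DTX4 by 0.011 (-0.17 to 0.20), SCD by -0.20 (-0.33 to -0.065) and MPEG1 by -0.13 (-0.35 to 0.095). EVI2A differed by 0.35 (0.14 to 0.56), IRF4 by -0.27 (-0.42 to -0.12), CCR2 by -0.29 (-0.50 to -0.084) and SNAR-B1 by -0.30 (-0.57 to -0.027). The bounds of all 16 intervals ran from -0.57 to 0.56. Of the 48 DNA repair genes 4 were lower with OTX015, as was 1 of the 48 nuclear transport genes, against 159 of all 14812 genes. Among the 50 tRNA modification genes limma called 0, with 9 lower at an unadjusted p under 0.05.

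RVX208 was used at 5 uM, so the values stand side by side and are not a comparison at matched dose. Between OTX015 and RVX208 14.5% of genes differed, 748 higher and 1405 lower with OTX015 (980 and 1167 after quantile normalization). ARRDC4 averaged 9.72 with OTX015 at 300 nM and 7.72 with RVX208 at 5 uM, SCIMP 5.79 and 7.80, and SCD 7.71 and 9.06. Nuclear transport genes were lower with OTX015 in 26 of 48 cases, tRNA modification genes in 20 of 50 and DNA repair genes in 19 of 48. Among all 14812 genes 1405 were lower, and shares by signal level were not computed for this comparison.

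Between OTX015 and DW71374, both at 300 nM, 25.2% of genes differed, 1649 higher and 2081 lower with OTX015 (1909 and 1873 after quantile normalization). ARRDC4 averaged 9.72 with OTX015 and 6.93 with DW71374, and ZYG11B 7.97 and 6.41. SCIMP averaged 5.79 with OTX015 and 8.15 with DW71374, and IPO4 6.43 and 7.63. OTX015 minus DW71374 was 1.0 for STAT3, -1.95 for DTX4, -1.17 for IRF4 and -1.39 for POLR3G, and OTX015 minus DMSO was 1.02, -1.97, -1.05 and -1.27 for the same genes. Both sets of differences share the OTX015 arrays.

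**Figure D5:**
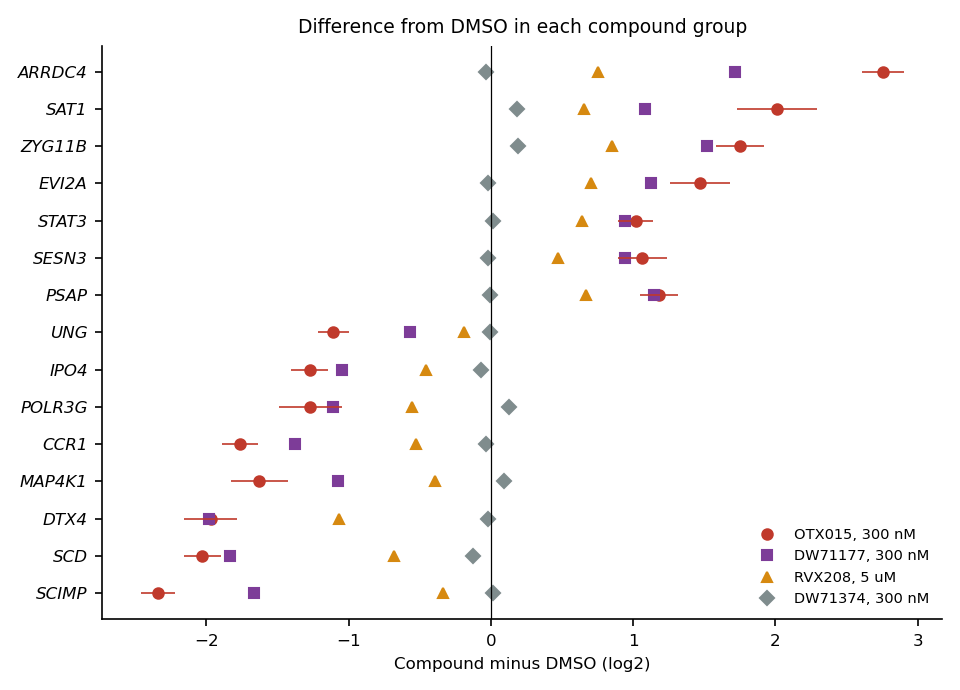
Points give the difference from DMSO on the x axis (log2) for 15 genes in the 4 compound groups, all against the same 3 DMSO arrays, with 95% intervals drawn for OTX015. For ARRDC4 the values are 2.76 with OTX015, 1.72 with DW71177, 0.76 with RVX208 and -0.032 with DW71374, and for SCIMP -2.34, -1.67, -0.34 and 0.014 in the same order.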

How the data were processed

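Gene expression was measured in MV4-11 cells on 15 Affymetrix whole-transcript arrays, 3 per group; the sample titles gave each array its group and number. The authors deposited log2 values whose array medians ran from 3.72 to 3.79, so these were taken as already normalized between arrays; the method is not given in sources used here, and neither are software and build. Normalization between arrays removes a change shared by all genes. Of 44629 features 15835 named 1 gene in the platform annotation, and all of these matched RefSeq symbols; for the 651 genes with several features the one with the highest mean over 15 arrays was used, which left 14812 genes.

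The test was lmFit followed by eBayes (limma 3.58.1, R 4.3.3), in a single fit of all 15 arrays that left 10 residual degrees of freedom. Two-sided p-values were adjusted by Benjamini-Hochberg over all 14812 genes, and a gene was called under 0.05. Values are log2 differences ± standard error, and folds are 2 to that power. The fit was tested on simulated data. The members and lists were chosen with earlier results of these data known, so lists are described by counts and medians without a set test. Genes named were the 30 largest rises and 30 largest falls among called genes with non-overlapping arrays and a mean of at least 5 in either group, 6 of each for long noncoding RNAs, microRNAs and pseudogenes, called list members with the 6 smallest p and members set beside them for their role, and 6 genes each way against each other compound. A level under 5 was termed dim. Precision is limited by having 3 arrays per group, since arrays have no read depth. Alternatives changed the arrays fitted, the variance prior, weights, normalization, features, level filter, replicate block and single arrays.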

Additional observations from a re-analysis of the deposited data

Results flagged for a closer look

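Features without a gene name in the platform annotation lay outside the comparison. When all 44629 features were fitted together, limma called 2561 of the 28794 unnamed features (8.89%), 1296 higher and 1265 lower with OTX015 than with DMSO. At least 2-fold differences were found for 103 higher and 153 lower features. The strongest rise averaged 8.55 with OTX015 and 5.80 with DMSO, and the strongest fall 4.78 with OTX015 and 7.87 with DMSO. These features are unnamed here, so no gene is given for them.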

How the results depend on the processing

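The count of 3800 genes between OTX015 and DMSO stayed between 3158 and 4023 over the alternatives other than a fold minimum, with 3296 to 3544 when single arrays were left out and 3719 with the replicate number as a block; a 2-fold minimum left 197. OTX015 against DW71177 was the least stable comparison: its 186 genes became 1 with the 6 arrays alone, 593 among genes of mean 5 or more, 495 with a variance trend, 107 with the replicate block and 71 to 139 when single arrays were left out. OTX015 against RVX208 gave 2153 genes, 1353 with the 6 arrays alone and 1613 to 1920 when single arrays were left out, and OTX015 against DW71374 gave 3730 and 3196 to 3449. Same-numbered OTX015 and DMSO arrays did not deviate together from their group means (r = 0.01, 0.022 and -0.004, and not every array correlated best with its own number). No pairing was thus seen between these groups, and the other groups were not compared in this way. The block moved the counts against DMSO, RVX208 and DW71374 by less than 1.5 times, and that against DW71177 from 186 to 107. Against DMSO, lower immediate-early and KLF genes numbered 2, and 4 among genes of mean 4 or more; lower SNARE and coat genes numbered 3, and 5 among genes of mean 5 or more or with a variance trend; and lower nutrient signalling genes numbered 0, and 1 with the 6 arrays alone. The causes were not tested. Of 336 called genes chosen by the naming rule or set beside them 294 kept their call in all 17 alternatives to the fit against DMSO, 42 lost it in some, 8 of them with the block, and none of these alternatives turned a direction. Other features of the same gene, looked at after the data were seen, turned the direction for ADCY6 (-0.0595), TIMP3 (0.0556) and GALNT2 (-0.0266), and also for KRTAP21-1 (0.0454) and KRT18 (-0.0302), which were not called against DMSO; none of these 5 features was called. Signal over background was not analysed here, which limits the folds of dim genes.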
